A study of Mus musculus with 3 samples.

Results

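The 6 genes described here are Arntl, Npas2, Clock, Nfil3, Cry1 and Rora, called the clock activator arm genes, out of 32285 genes whose RNA was counted nucleus by nucleus in submandibular glands, paired salivary glands under the jaw of the mouse. They were matched by symbol from a list chosen with earlier results of these same libraries known, so the UMI counts and ratios below are a description, with no test. Each of 3 groups of wild-type mice gave 1 library: glands irradiated and then given pilocarpine, an agonist of muscarinic receptors that makes the gland secrete (here the pilocarpine library), glands irradiated and given saline (the saline library), and non-irradiated glands with no treatment named, saline included (the non-irradiated library). The titles place collection 90 days after irradiation, with pilocarpine from day 30 to day 90, and the extraction protocol gives 93 days. Age, sex, the number of mice pooled and the hour of tissue collection are not given in the labels. Clock genes follow the time of day, so treatment, library and hour of collection cannot be told apart in any comparison between these libraries.

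The circadian clock of mammals is a loop of transcription and repression that runs in most tissues, salivary glands included. The protein of Arntl (BMAL1) pairs with that of Clock or Npas2, and the pair binds E-box letters in DNA to drive Per, Cry, Nr1d1 and other genes. PER and CRY proteins then repress the pair, while ROR proteins such as that of Rora activate, and NR1D1 and NR1D2 repress, a second set of genes through ROR elements (ROREs), a set that holds Arntl, Npas2, Clock, Nfil3 and Cry1 in mouse. Cry1 and Nfil3 themselves encode repressors, so the list joins activators with genes driven through ROREs.

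Counts are unique molecular identifiers (UMIs), one per captured RNA molecule. Barcodes with at least 500 detected genes and at most 5% mitochondrial UMIs were used, 27633 nuclei of 32511 barcodes: 8376 in the pilocarpine library, 8622 in the saline library and 10635 in the non-irradiated library, with 33358056, 29177212 and 25566617 UMIs in that order. Median depth was 2048, 2113 and 1536 UMIs per nucleus, and each pair of libraries shared 24 to 26 barcodes. Xist stood at 1085 to 1179 CPM (UMIs of a gene per 1000000 UMIs of the nuclei pooled) in all 3 libraries, and no library held more than 7 UMIs of any of 4 Y-linked genes. Nuclei fell into 24 clusters, grouped into classes by marker genes. The acinar-like class (the saliva-producing cells) held all 7 of its markers above 0 in each library. It was made of clusters 0, 1, 2, 3, 6 and 16, of which clusters 0 and 3 came mostly from the irradiated libraries and clusters 1 and 6 mostly from the non-irradiated one. Classes with at least 300 nuclei in every library were compared: acinar-like, granular or striated duct-like (clusters 4 and 14, with cluster 14 made of 21, 491 and 42 nuclei of the pilocarpine, saline and non-irradiated libraries), fibroblast-like, myoepithelial-like and an unnamed cluster led by Wnt4 and Scnn1b. The Wnt4 and Scnn1b cluster was much deeper than the other compared classes. Its median was 16803, 6870.5 and 7944.5 UMIs per nucleus in the pilocarpine, saline and non-irradiated libraries, against 2200.5, 2507 and 1523 in acinar-like nuclei. The 7 fibroblast markers summed to 223, 308 and 244 CPM in it, against 19.4, 11.7 and 24.1 CPM in acinar-like nuclei. Whether its barcodes hold several nuclei was not tested. All intervals are 95% and cover counting error only, and there were no replicates.

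The promoters of the members that carry ROR or E-box letters are shown because the data bear on genes known to be driven through them. RefSeq windows of 300 bases (250 before and 50 after a transcript start, build GRCm38.p6) were found for all 6 members, 9 windows in all. They were searched on both strands for RORE (TAGGTCA or TGGGTCA), E-box (CACGTG), E-prime box (CACGTT) and D-box (TTATGTAA or TTACATAA) letters, in which none of these motifs holds another. Capitals mark the matches, read 5′ to 3′ on the gene's strand. In the second Arntl window, chr7:113207261-113207560 on the plus strand, a RORE match begins 31 bases into the transcript. In the Nfil3 window, chr13:52980990-52981289 on the minus strand, a RORE match on the opposite strand begins 12 bases before the start. The Cry1 window, chr10:85185005-85185304 on the minus strand, holds an E-box 60 bases before the start and an E-prime box on the opposite strand 79 bases before it.
Arntl: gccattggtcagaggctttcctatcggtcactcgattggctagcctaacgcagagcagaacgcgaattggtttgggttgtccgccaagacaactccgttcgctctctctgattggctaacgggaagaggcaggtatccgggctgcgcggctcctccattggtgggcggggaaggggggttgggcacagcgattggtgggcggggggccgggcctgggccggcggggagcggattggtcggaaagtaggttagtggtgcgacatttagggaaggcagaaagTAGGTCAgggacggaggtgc
Nfil3: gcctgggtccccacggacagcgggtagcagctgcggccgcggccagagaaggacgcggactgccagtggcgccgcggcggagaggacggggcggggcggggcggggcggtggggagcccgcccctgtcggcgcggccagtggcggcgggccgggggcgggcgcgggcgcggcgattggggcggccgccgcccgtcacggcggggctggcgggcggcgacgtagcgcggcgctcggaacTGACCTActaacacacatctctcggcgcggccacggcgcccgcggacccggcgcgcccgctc
Cry1: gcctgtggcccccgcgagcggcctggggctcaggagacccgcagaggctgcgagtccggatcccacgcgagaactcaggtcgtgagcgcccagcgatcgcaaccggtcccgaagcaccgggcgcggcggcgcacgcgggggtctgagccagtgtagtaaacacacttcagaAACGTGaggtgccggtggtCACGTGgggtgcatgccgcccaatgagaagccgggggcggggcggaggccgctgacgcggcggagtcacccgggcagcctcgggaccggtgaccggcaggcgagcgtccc
Among all 32851 promoter windows of this length, 6.45% held RORE letters, 7.15% E-box letters, 4.68% E-prime box letters and 0.938% D-box letters. The windows of Npas2, Clock and Rora held none of these letters, which says only that they are not in these windows.

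Arntl encodes BMAL1, the shared partner of both dimers, and lies at chr7:113207465-113314126 on GRCm38. In acinar-like nuclei it had 37 UMIs in the pilocarpine library, 11 in the saline library and 365 in the non-irradiated library. As levels these were 2.95 CPM (2.08 to 4.06), 1.01 CPM (0.502 to 1.80) and 31.5 CPM (28.4 to 34.9) in that order. Both irradiated libraries lay far under the non-irradiated one, with no overlap of the intervals. The saline library's level was 31.4 times lower than the non-irradiated library's (17.3 to 63.4 times), and the pilocarpine library's was 10.7 times lower (7.61 to 15.4 times). Between the irradiated libraries, Arntl was 2.93 times higher with pilocarpine than with saline (1.46 to 6.37). The 365 UMIs of the non-irradiated library were spread over 233 of 6325 acinar-like nuclei, at most 8 in a nucleus, so the level did not rest on a few nuclei.

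Npas2, the alternative partner of BMAL1 (chr1:39193731-39363236), showed the same order in acinar-like nuclei. It had 29 UMIs with pilocarpine, 17 with saline and 383 without irradiation, or 2.31, 1.55 and 33.1 CPM. The level was 14.3 times lower in the pilocarpine library than in the non-irradiated one (9.81 to 21.7 times) and 21.3 times lower in the saline library (13.1 to 36.9 times). Between pilocarpine and saline the ratio was 1.49, with an interval of 0.790 to 2.89 that includes no change.

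Clock (chr5:76209868-76304792), the other partner, kept close levels in acinar-like nuclei while Arntl and Npas2 did not. It had 1204, 932 and 1226 UMIs in the pilocarpine, saline and non-irradiated libraries, or 95.9, 85.2 and 106 CPM. Saline over non-irradiated was 0.804 (0.738 to 0.877) and pilocarpine over non-irradiated 0.906 (0.836 to 0.982), so both irradiated libraries were slightly lower beyond counting error. Rora, the activator that acts through ROREs (chr9:68653786-69388246), was level: 131, 139 and 139 CPM in the same order, with every ratio between 0.944 and 0.998 and every interval including 1. With an estimate of free RNA subtracted, however, Rora stood at 3.50 for saline over non-irradiated and 3.03 for pilocarpine over non-irradiated in acinar-like nuclei, so its flat level depends on that setting.

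Nfil3, a transcriptional repressor of D-box genes that is itself driven through ROREs (chr13:52967209-52981073), was lower in both irradiated libraries in acinar-like nuclei. It had 370 UMIs and 29.5 CPM with pilocarpine, 332 UMIs and 30.3 CPM with saline, and 510 UMIs and 44.1 CPM without irradiation. The ratios to the non-irradiated library were 0.669 (0.584 to 0.767) with pilocarpine and 0.689 (0.598 to 0.793) with saline, and the irradiated libraries did not differ beyond counting error (0.972, 0.836 to 1.13). Cry1, a repressor of the BMAL1 dimers with both E-box and RORE control (chr10:85131700-85185064), went the other way. It had 315, 364 and 194 UMIs in the pilocarpine, saline and non-irradiated libraries, or 25.1, 33.3 and 16.8 CPM. Saline over non-irradiated was 1.99 (1.66 to 2.38), pilocarpine over non-irradiated 1.498 (1.25 to 1.80) and pilocarpine over saline 0.754 (0.647 to 0.880). Cry1 in the first of these was just short of a 2-fold difference and passed it in 5 of 11 alternative settings, between 1.77 and 2.04. For pilocarpine over non-irradiated, Npas2 in fibroblast-like nuclei (0.510) and Cry1 in the Wnt4 and Scnn1b cluster (1.98) were also just short of it. Just past it were Nfil3 in that cluster for saline over non-irradiated (0.476) and Npas2 in fibroblast-like nuclei for pilocarpine over saline (2.15).

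**Figure D1:**
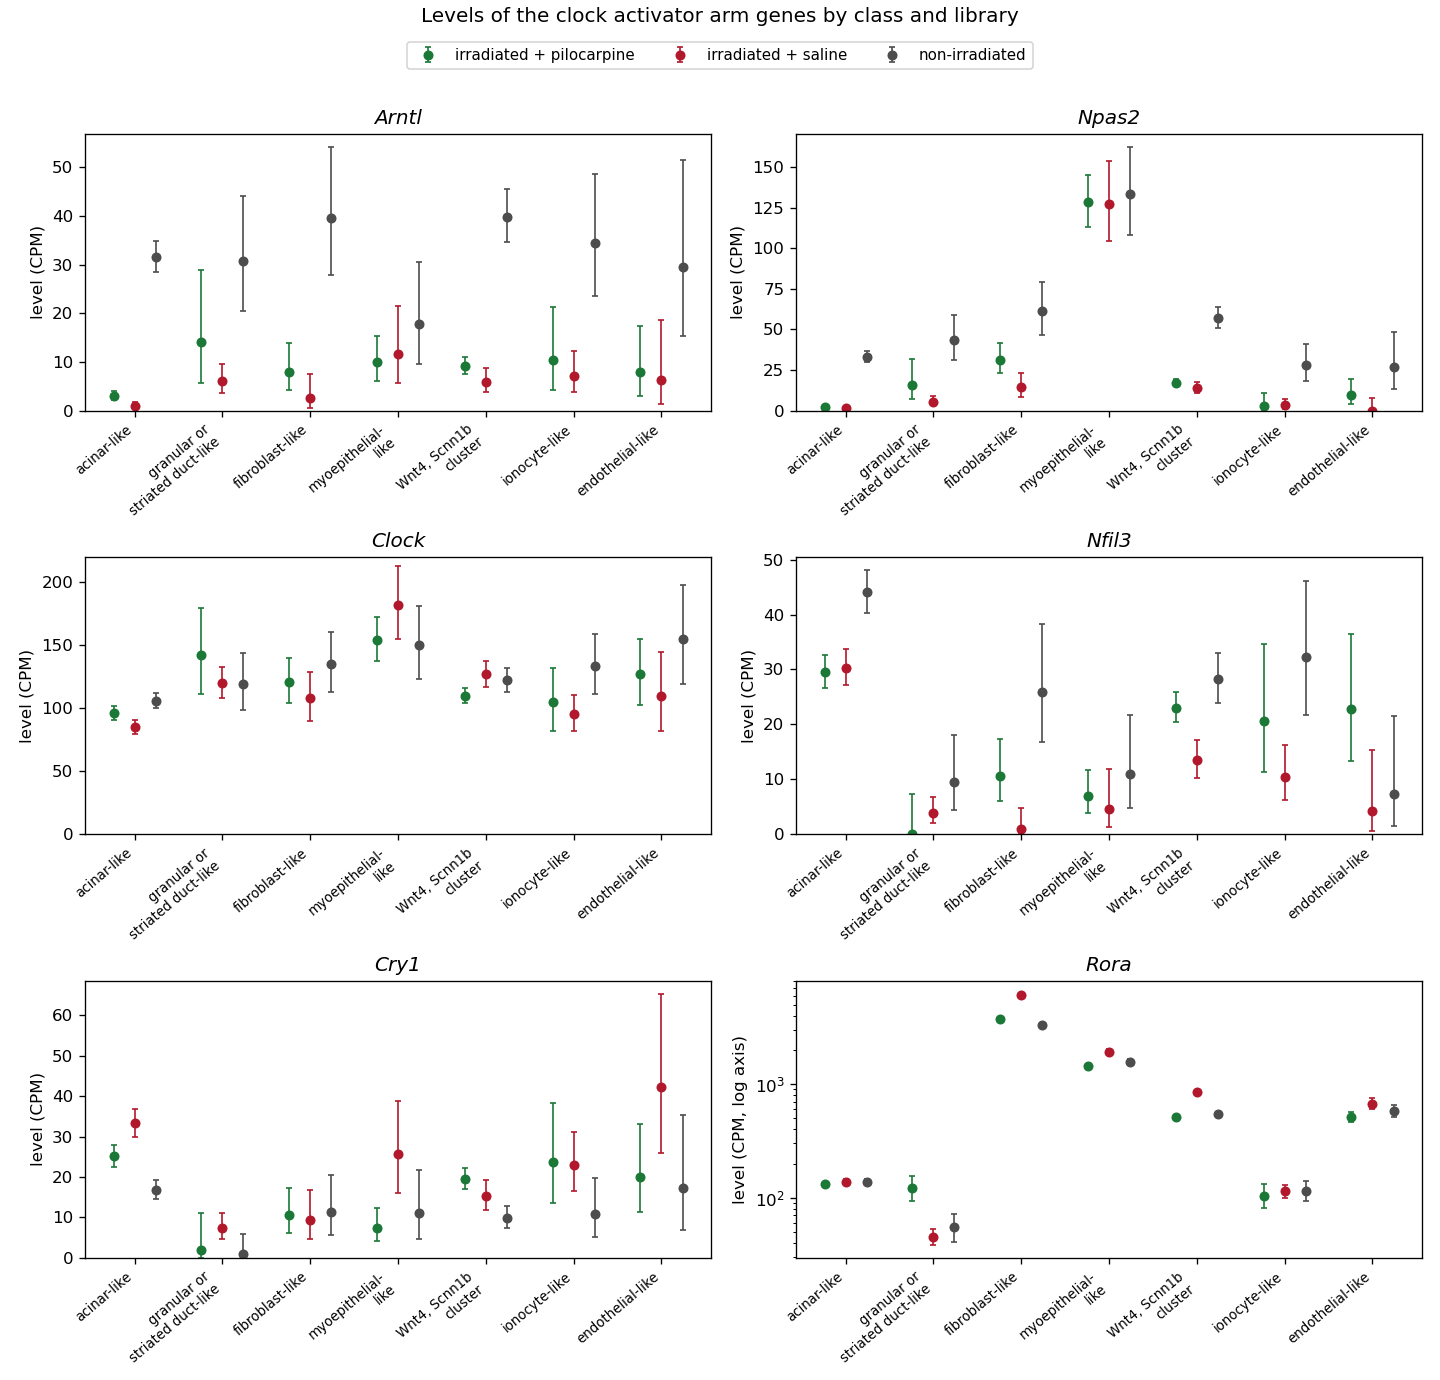
Level of each gene in CPM (vertical axis, logarithmic for Rora only) in 7 classes, with green points for the irradiated + pilocarpine library, red for irradiated + saline and grey for non-irradiated; bars are exact 95% Poisson intervals of the counts. Arntl and Npas2 stand at 2.95 CPM or less in acinar-like nuclei of both irradiated libraries and above 31 CPM in the non-irradiated one, while Npas2 in myoepithelial-like nuclei stands near 130 CPM in all 3.

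Because the acinar-like clusters drew on the libraries unequally, the levels were also read within each cluster. Arntl lay between 2.37 and 6.16 CPM in the 6 clusters of the pilocarpine library, between 0 and 1.88 CPM in the saline library and between 24.5 and 92.6 CPM in the non-irradiated library. Npas2 lay between 0 and 6.39 CPM with pilocarpine, between 0 and 6.41 CPM with saline and between 22.8 and 81.9 CPM without irradiation. For both genes the point value of every cluster of the non-irradiated library was above that of every cluster of both irradiated libraries. Several irradiated values rest on few UMIs, such as 2 Npas2 UMIs behind the 6.41 CPM, with an interval of 0.776 to 23.1. Nfil3 overlapped between all 3 libraries across clusters, while Cry1 in the saline library lay just above its range in the non-irradiated library and overlapped the pilocarpine library's. Nfil3 ranged from 21.9 to 38.3, from 12.8 to 37.6 and from 21.4 to 50.8 CPM in the pilocarpine, saline and non-irradiated libraries, and Cry1 from 12.3 to 40.4, from 25.2 to 37.5 and from 7.12 to 24.5 CPM.

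**Figure D2:**
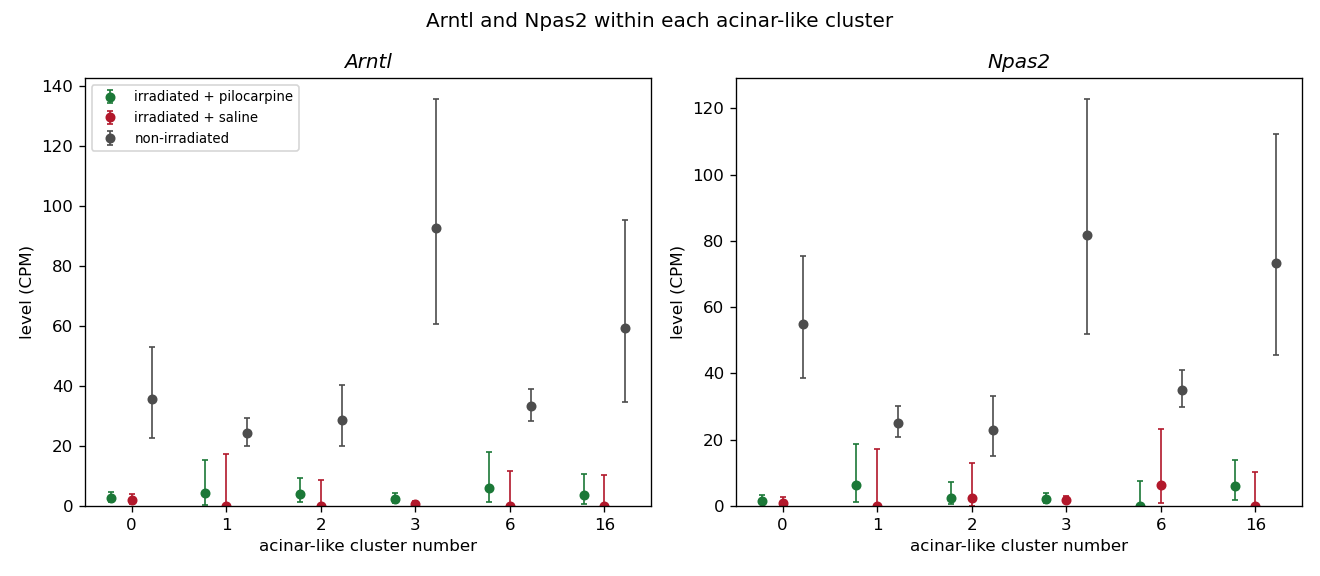
Arntl and Npas2 levels in CPM (vertical axis) within each of the 6 acinar-like clusters (horizontal axis, cluster number), by library, with exact 95% Poisson intervals. In each cluster the grey non-irradiated point, 22.8 CPM or more, lies above the green pilocarpine and red saline points, 6.41 CPM or less.

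Outside the acinar-like nuclei, Arntl was again lowest in the irradiated libraries. Duct-like nuclei, from the tubes that carry and modify the saliva, held 7, 19 and 29 Arntl UMIs in the pilocarpine, saline and non-irradiated libraries, or 14.01, 6.08 and 30.6 CPM. Fibroblast-like nuclei held 12, 3 and 38 UMIs, or 7.98, 2.57 and 39.5 CPM, and the Wnt4 and Scnn1b cluster 107, 27 and 219 UMIs, or 9.08, 5.94 and 39.8 CPM. Saline over non-irradiated was 0.199 (0.105 to 0.366) in duct-like, 0.0650 (0.0128 to 0.205) in fibroblast-like and 0.149 (0.0961 to 0.223) in Wnt4 and Scnn1b nuclei. The log2 ratio of saline over non-irradiated was lower in acinar-like than in duct-like nuclei, by -2.64 (-3.84 to -1.44), and lower than in the Wnt4 and Scnn1b cluster, by -2.23 (-3.27 to -1.19). Over the 11 classes and unnamed clusters with at least 20 Arntl UMIs, the level was lower in both irradiated libraries than in the non-irradiated library in all 11, although these classes share the same 3 libraries. In 8 of the 11 the pilocarpine library stood above the saline library. Barcodes under the gene minimum, which can hold free RNA or small nuclei, had Arntl at 13.5, 14.3 and 23.6 CPM in the pilocarpine, saline and non-irradiated libraries. Arntl in both irradiated libraries was under these values in acinar-like, fibroblast-like, myoepithelial-like and Wnt4 and Scnn1b nuclei, as was duct-like Arntl with saline, while duct-like Arntl with pilocarpine was close to its value. With the estimated free RNA subtracted, no Arntl remained in acinar-like and fibroblast-like nuclei of the saline library. There it cannot be told apart from free RNA. In duct-like, myoepithelial-like and Wnt4 and Scnn1b nuclei some remained, with saline over non-irradiated at no less than 0.115, 0.445 and 0.0353 over all settings. With pilocarpine some remained in every compared class. The estimated share of free RNA per class was 16.8% to 30.2% with pilocarpine, 11.53% to 32.7% with saline and 29.1% to 52.4% without irradiation, and its part in the differences of Arntl was not tested beyond the subtraction given among the alternatives.

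Npas2 was likewise below the non-irradiated library in both irradiated libraries in all of the 10 classes and unnamed clusters with at least 20 UMIs, but the size of the difference varied with the class. In duct-like nuclei it had 8, 17 and 41 UMIs, or 16.0, 5.44 and 43.3 CPM, in the pilocarpine, saline and non-irradiated libraries. Fibroblast-like nuclei had 31.3, 14.5 and 61.3 CPM, and the Wnt4 and Scnn1b cluster 17.2, 13.9 and 56.9 CPM. Myoepithelial-like nuclei, from cells that squeeze the acini, stood apart. They held 259, 109 and 97 UMIs, or 129 CPM (113 to 145), 127 CPM (105 to 154) and 133 CPM (108 to 163), with heavily overlapping intervals. There the ratio of saline over non-irradiated was 0.955 (0.720 to 1.27) and pilocarpine over non-irradiated 0.964 (0.761 to 1.23). The log2 ratio of saline over non-irradiated was lower in acinar-like than in myoepithelial-like nuclei by -4.35 (-5.15 to -3.54), lower in duct-like than in myoepithelial-like nuclei by -2.93 (-3.83 to -2.02) and lower in fibroblast-like than in myoepithelial-like nuclei by -2.01 (-2.88 to -1.14). Myoepithelial-like nuclei also had the highest Npas2 level of 10 ranked classes in each library, above fibroblast-like nuclei beyond counting error. The ranked classes and unnamed clusters are those with at least 100 nuclei in every library.

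Arntl in myoepithelial-like nuclei did not differ beyond counting error. It had 20, 10 and 13 UMIs in the pilocarpine, saline and non-irradiated libraries, or 9.93, 11.7 and 17.9 CPM. The saline to non-irradiated ratio was 0.654 (0.257 to 1.61) and pilocarpine over non-irradiated 0.556 (0.263 to 1.22). The log2 ratio of saline over non-irradiated in acinar-like nuclei was lower than this one by -4.36 (-5.83 to -2.89). All 3 levels were under those of the barcodes below the gene minimum in the same library (13.5, 14.3 and 23.6 CPM), so a difference in Arntl of these nuclei may not be detectable at this depth. In the non-irradiated library, myoepithelial-like nuclei had the lowest Arntl level of the 10 ranked classes, although it did not differ from its neighbour, endothelial-like nuclei, beyond counting error.

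Clock was not past 2-fold between libraries in any of the 5 compared classes, but its level differed between classes. It lay between 95.9 and 154 CPM in the 5 compared classes of the pilocarpine library, between 85.2 and 182 CPM with saline and between 106 and 150 CPM without irradiation. Acinar-like nuclei were the lowest and myoepithelial-like nuclei the highest of these 5 in each library. Their intervals were apart, such as 79.8 to 90.8 against 155 to 213 CPM with saline. Over the 10 ranked classes most neighbours in the order overlapped. In the Wnt4 and Scnn1b cluster it had 1292, 576 and 671 UMIs, or 110, 127 and 122 CPM, in the pilocarpine, saline and non-irradiated libraries. Pilocarpine over saline was 0.865 (0.784 to 0.956) there and 1.13 (1.03 to 1.23) in acinar-like nuclei, opposite directions of a small size.

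Among the 10 ranked classes, Nfil3 was highest in acinar-like nuclei of the pilocarpine library, above the next class beyond counting error. In the saline library acinar-like nuclei came after cycling-like nuclei, and in the non-irradiated library they came first, but in neither did the neighbours differ beyond counting error. Clusters 11 and 21, not ranked, had Nfil3 at 54.2 and 47.7 CPM in the non-irradiated library. Acinar-like nuclei had 44.1 CPM there, with overlapping intervals. In fibroblast-like nuclei Nfil3 had 16 UMIs with pilocarpine, 1 with saline and 25 without irradiation, or 10.6, 0.855 and 26.0 CPM. Saline over non-irradiated was 0.0329 (0.000802 to 0.201) and pilocarpine over non-irradiated 0.410 (0.204 to 0.798). The summed level of the 7 acinar markers in these fibroblast-like nuclei was 48940, 29593 and 43044 CPM in the same order, none of them at 0, and the part of that RNA in the Nfil3 difference was not tested. Barcodes under the gene minimum had Nfil3 at 19.7, 21.5 and 33.0 CPM in the same order of libraries. These values were above its fibroblast-like and duct-like levels in each library. In the Wnt4 and Scnn1b cluster Nfil3 stood at 23.0, 13.4 and 28.2 CPM, with saline over non-irradiated at 0.476 (0.348 to 0.644) and pilocarpine over saline at 1.71 (1.29 to 2.30). With each nucleus thinned to 800 UMIs, saline over non-irradiated turned to 1.57 there and to 1.34 in duct-like nuclei, so the direction of Nfil3 in this pair of classes depends on that setting. In duct-like nuclei it had 0, 12 and 9 UMIs in the pilocarpine, saline and non-irradiated libraries. The 0 of the pilocarpine library, from 499615 UMIs in all, has an interval that reaches 7.38 CPM. The saline and non-irradiated libraries stood at 3.84 and 9.51 CPM.

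Cry1 was higher in both irradiated libraries in 8 of the 11 classes and unnamed clusters with at least 20 UMIs and lower in both in 1, fibroblast-like nuclei. There it stood at 10.6, 9.41 and 11.4 CPM in the pilocarpine, saline and non-irradiated libraries, and every interval of its ratios included 1. In myoepithelial-like nuclei the saline library was the highest: 15, 22 and 8 UMIs, or 7.44, 25.7 and 10.99 CPM. Pilocarpine over saline was 0.290 there (0.140 to 0.584). Barcodes under the gene minimum had Cry1 at 14.6, 27.2 and 10.6 CPM in the same order, also highest with saline. The part of free RNA in the myoepithelial-like difference was not tested beyond the subtraction among the alternatives. In the Wnt4 and Scnn1b cluster the pilocarpine library was the highest, at 19.4 CPM against 15.2 CPM with saline and 9.82 CPM without irradiation, and pilocarpine over non-irradiated was 1.98 (1.47 to 2.71). Over 8 alternative settings this ratio lay between 0.531 and 2.26 and was under 1 only at 0.531, with nuclei thinned to 800 UMIs. In duct-like nuclei Cry1 had 1, 23 and 1 UMIs in the pilocarpine, saline and non-irradiated libraries. That gave a saline over non-irradiated ratio of 6.97, with an interval of 1.13 to 287 that reflects the single UMI.

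Among the 10 ranked classes, Rora had its highest level in fibroblast-like nuclei of each library. It stood at 3694 CPM with pilocarpine, 6119 CPM with saline and 3328 CPM without irradiation. Saline over non-irradiated was 1.84 (1.76 to 1.92), pilocarpine over saline 0.604 (0.583 to 0.625) and pilocarpine over non-irradiated 1.11 (1.06 to 1.16), so the saline library stood out. The 7 fibroblast markers summed to 2602, 3175 and 2548 CPM in these nuclei, also highest with saline, and their part in the difference was not tested. Myoepithelial-like nuclei came next among the ranked classes, at 1446, 1920 and 1578 CPM, and the Wnt4 and Scnn1b cluster had 509, 848 and 545 CPM. In both, the saline library was again the highest, with saline over non-irradiated at 1.22 (1.13 to 1.31) and 1.56 (1.48 to 1.63) in that order.

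Duct-like nuclei differed from this pattern of Rora, with 61, 142 and 52 UMIs, or 122 CPM in the pilocarpine library, 45.5 CPM in the saline library and 54.9 CPM in the non-irradiated library. The 61 UMIs of the pilocarpine library lay in 33 of 342 nuclei, at most 11 in a nucleus. The counting intervals do not cover such clumping. Pilocarpine over saline was 2.69 (1.96 to 3.65) and pilocarpine over non-irradiated 2.22 (1.51 to 3.28). The log2 ratio of pilocarpine over saline was higher in duct-like than in fibroblast-like nuclei by 2.15 (1.72 to 2.59). In cluster 4 alone, without cluster 14, pilocarpine over saline was 1.81 (1.25 to 2.57) and pilocarpine over non-irradiated 1.83 (1.20 to 2.79), both under 2-fold. The fibroblast markers summed to 38.0, 25.0 and 28.5 CPM in duct-like nuclei of the pilocarpine, saline and non-irradiated libraries, with 3 of 7, 0 of 7 and 0 of 7 at 0. The myoepithelial markers summed to 40.03, 25.6 and 30.6 CPM, with 2, 1 and 1 of 6 at 0, and the part of either list in the Rora difference was not tested. Rora stood at 444, 599 and 423 CPM in barcodes under the gene minimum, above its duct-like and acinar-like level in each library. With the estimate of free RNA subtracted, no duct-like Rora ratio was defined in any comparison. That setting thus gives no value for the duct-like difference.

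**Figure D3:**
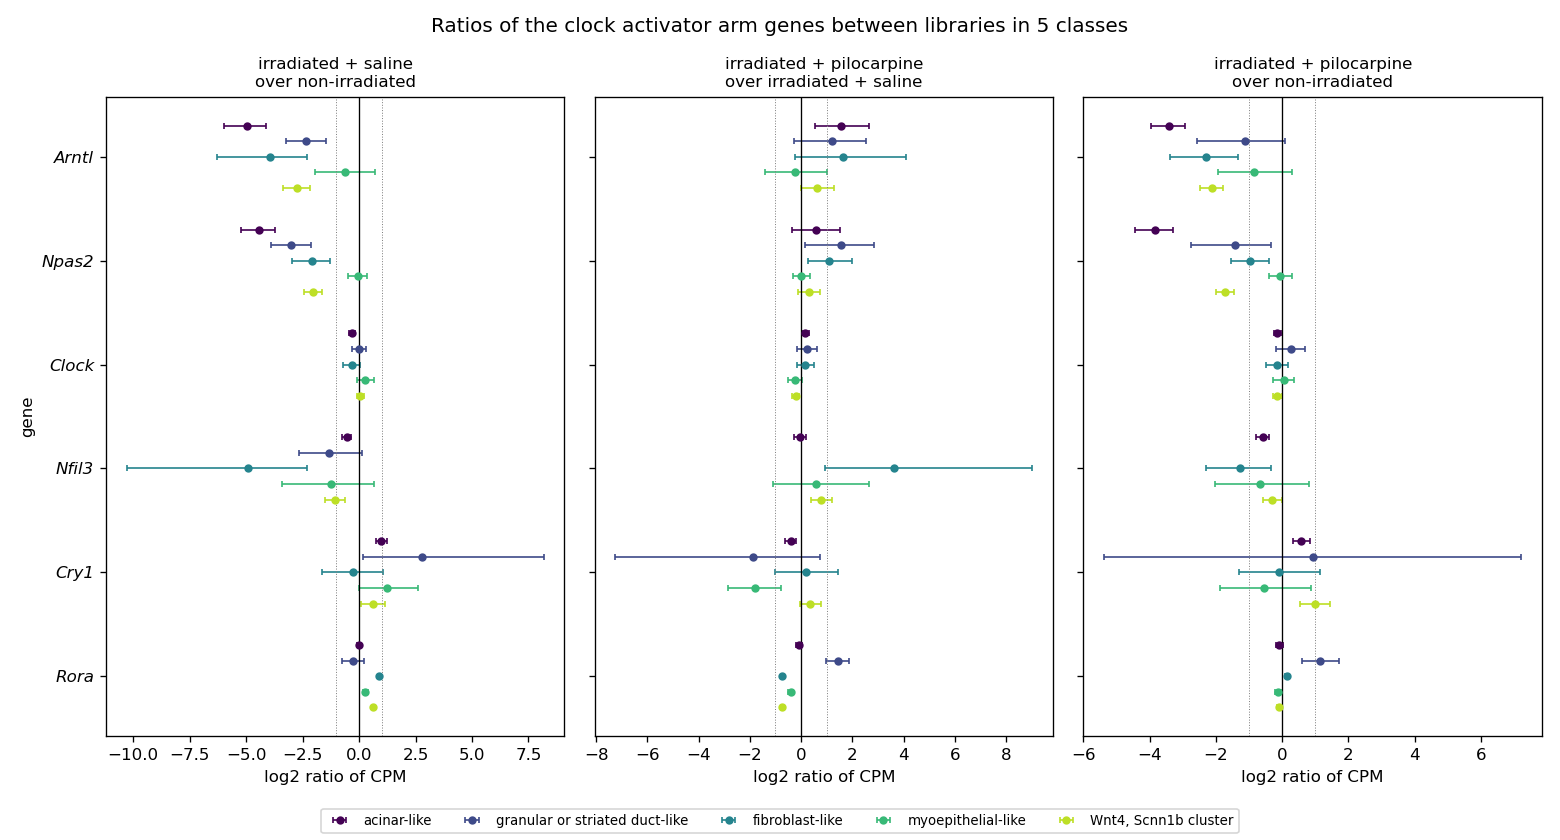
Log2 ratio of CPM (horizontal axis) of each gene in 5 classes, coloured by class, for saline over non-irradiated (left), pilocarpine over saline (middle) and pilocarpine over non-irradiated (right); bars are exact 95% intervals of the counts, dotted lines mark 2-fold, and Nfil3 in duct-like nuclei of the pilocarpine library, at 0 UMIs, is not drawn. Arntl lies left of 0 in all classes of the left panel, and Npas2 lies beside 0 only in myoepithelial-like nuclei, at a ratio of 0.955.

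Counts of members past 2-fold were set beside the same share of all genes, among genes with at least 20 UMIs in the 2 libraries together. In acinar-like nuclei of saline over non-irradiated, all 6 members passed that minimum and 2 were lower, Arntl and Npas2, against 2.92% of 13933 genes, while 0 were higher against 3.37%. In duct-like nuclei 3 of 6 were lower (Arntl, Npas2, Nfil3) against 3.63%, and 1 was higher (Cry1) against 3.88%, with an interval for Nfil3 that includes 1 (0.404, 0.156 to 1.09). The Cry1 call there rests on 23 and 1 UMIs, and its ratio was not defined with free RNA subtracted. Arntl, Npas2 and Nfil3 were also lower in fibroblast-like nuclei, against 5.93%, and in the Wnt4 and Scnn1b cluster, against 1.36%. In myoepithelial-like nuclei 5 members passed the minimum and 1, Cry1, was higher, against 3.86%. For pilocarpine over saline, Arntl was higher in acinar-like nuclei against 1.51% of genes, Arntl, Npas2 and Rora were higher and Cry1 lower in duct-like nuclei against 3.78% and 5.02%. Of these duct-like calls, Arntl rests on 7 and 19 UMIs in the pilocarpine and saline libraries (2.30, 0.818 to 5.72) and Cry1 on 1 and 23 (0.272, 0.0066 to 1.67), and both intervals include 1. Thinned to 800 UMIs, the Arntl ratio was 1.04, and with free RNA subtracted the Rora ratio was undefined. In cluster 4 alone Npas2 was 2.38 (0.793 to 6.55) and Rora 1.81. In the same comparison Npas2 was higher in fibroblast-like nuclei against 4.42%, Cry1 was lower in myoepithelial-like nuclei against 1.94%, and no member was past 2-fold in the Wnt4 and Scnn1b cluster, where 3.92% of genes were lower. For pilocarpine over non-irradiated, Arntl and Npas2 were lower in acinar-like nuclei against 2.29%, in duct-like nuclei against 4.44% and in the Wnt4 and Scnn1b cluster against 1.23%. In cluster 4 alone Arntl in duct-like nuclei was at 0.557 (0.203 to 1.33), short of 2-fold. Arntl and Nfil3 were lower in fibroblast-like nuclei against 1.88%. Rora was higher in duct-like nuclei against 2.82%, with no defined ratio once free RNA was subtracted. No member was past 2-fold in myoepithelial-like nuclei, where 5.7% of genes were higher. Since the members were chosen with these contrasts known, nothing is read from the counts beyond the values, and the pairs of comparisons share libraries.

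Of 23 other genes of the clock loop, its modifiers and its outputs, 21 passed the UMI minimum in acinar-like nuclei of saline over non-irradiated. Of these, 6 were at least 2-fold higher (Per1, Per2, Per3, Ciart, Usp2 and Timeless) against 3.37% of all genes, and 0 lower. Their median log2 ratio was 0.34, against -0.43 for the 6 members and -0.03 over 13928 genes. Per2, a repressor of the BMAL1 dimers, was the most different, with 985, 1264 and 199 UMIs or 78.5, 116 and 17.2 CPM in the pilocarpine, saline and non-irradiated libraries. Its ratio was 6.72 for saline over non-irradiated (5.78 to 7.84) and 4.57 for pilocarpine over non-irradiated (3.92 to 5.35). Ciart, another repressor of the dimers, had 29.0, 37.2 and 11.8 CPM, and Timeless 17, 23 and 8 UMIs.

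For pilocarpine over non-irradiated, 22 of the 23 passed in acinar-like nuclei, and 2 were at least 2-fold higher, Per2 and Ciart, against 3.43% of all genes, with Bhlhe41, a repressor that competes for E-boxes, just short of it at 1.998 (1.63 to 2.46). The median log2 ratio was 0.27, against -0.36 for the members and 0.02 over all genes. Between pilocarpine and saline, 0 of 22 were past 2-fold in acinar-like nuclei, where 1.51% of all genes were higher. Nr1d1, which represses through the same ROREs that Rora activates, had 109 CPM with pilocarpine and 70.5 CPM with saline, a ratio of 1.54 (1.41 to 1.69), and 92.2 CPM without irradiation. Hlf, with 13 and 7 UMIs, and Timeless had ratios of 1.62 and 0.644 with intervals that include 1. Nr1d1 was thus on either side of the non-irradiated library, at 1.18 with pilocarpine (1.09 to 1.28) and 0.764 with saline (0.695 to 0.839).

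In duct-like nuclei, 19 of the other clock genes passed the minimum for saline over non-irradiated, and 1, Per2, was past 2-fold and higher against 3.88% of all genes, at 55.7 CPM against 18.0 CPM, a ratio of 3.10 (1.88 to 5.45). Per3 and Usp2 followed there at 1.52 and 1.39. For pilocarpine over non-irradiated, 17 passed and 2 were past 2-fold, both higher, against 2.82% of all genes. Per2 had 60.05 CPM against 18.0 CPM, a ratio of 3.34 (1.79 to 6.46). Bhlhe41 was at 2.02 with an interval that includes 1 (0.936 to 4.39), and Usp2 at 1.58 (1.05 to 2.39). Between pilocarpine and saline, 0 of 19 were past 2-fold, where 3.78% of all genes were higher and 5.02% lower. Per1 was at 0.544 (0.274 to 0.980), while Bhlhe41 (1.61) and Ciart (0.695) had intervals that include 1.

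Per2 was at least 2-fold higher in the other compared classes too when either irradiated library was set against the non-irradiated one. For saline over non-irradiated, 5 of 22 were higher in fibroblast-like nuclei (Per2, Hlf, Ciart, Bhlhe41 and Wee1) against 5.12% of all genes. In myoepithelial-like nuclei 2 of 19 were higher (Per2 and Bhlhe41) against 3.86%, and in the Wnt4 and Scnn1b cluster 2 of 23 (Per2 and Ciart) against 4.68%. For pilocarpine over non-irradiated, Per2 and Ciart were higher in fibroblast-like nuclei, 2 of 22 against 4.46%, in myoepithelial-like nuclei, 2 of 20 against 5.7%, and, with Fbxl21, in the Wnt4 and Scnn1b cluster, 3 of 23 against 4.34%. Pilocarpine over saline gave 1 lower of 22 in fibroblast-like nuclei (Wee1) against 2.04%, 1 lower of 21 in myoepithelial-like nuclei (Fbxl21) against 1.94% and 1 lower of 23 in the Wnt4 and Scnn1b cluster (Rorb) against 3.92%. Several of these shares are near that of all genes.

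**Figure D4:**
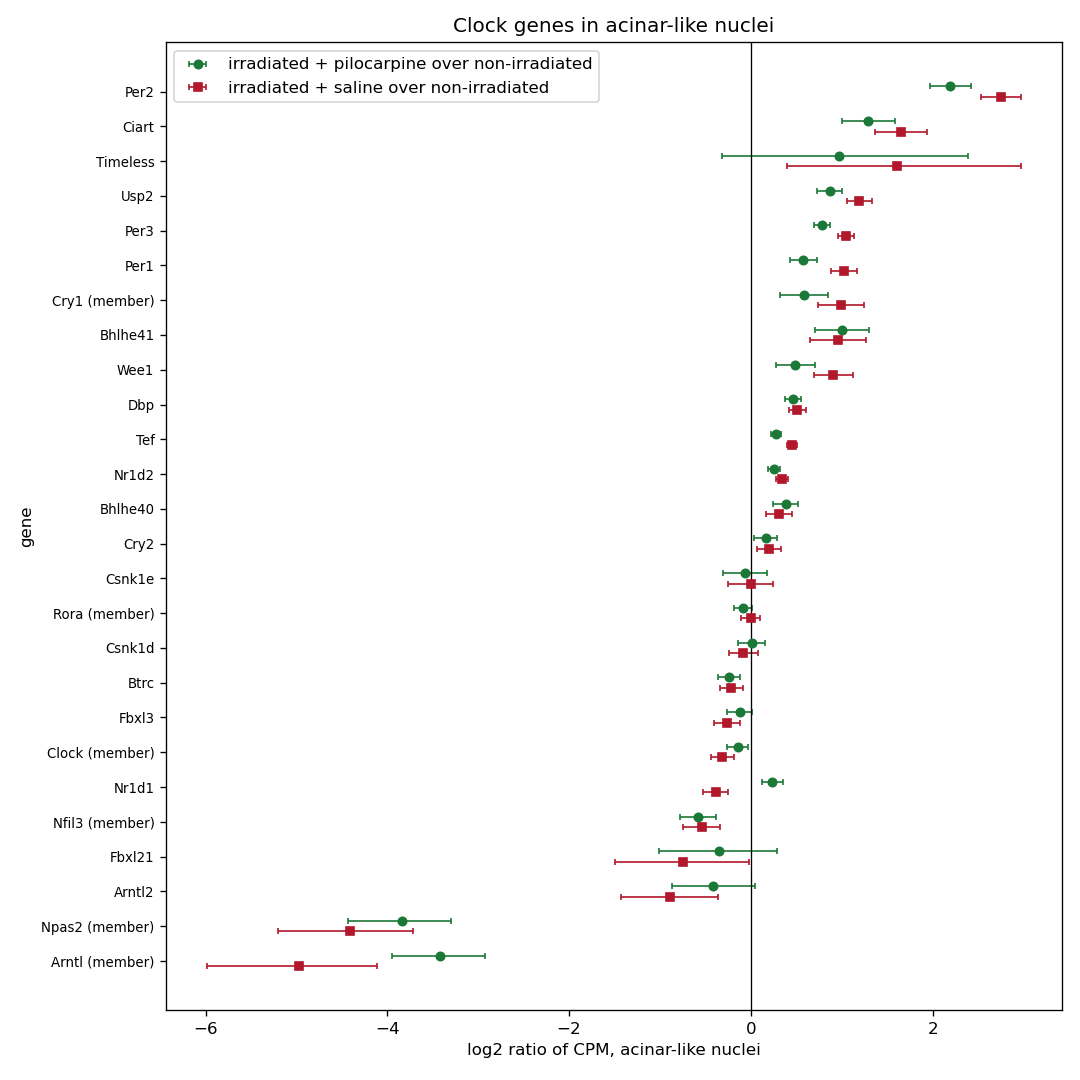
Log2 ratio of CPM in acinar-like nuclei (horizontal axis) for the clock genes reported here with enough UMIs (rows), as green circles for irradiated + pilocarpine over non-irradiated and red squares for irradiated + saline over non-irradiated, with exact 95% intervals; both share the non-irradiated library. Per2 lies at the right end, at ratios of 4.57 and 6.72, and Npas2 and Arntl at the left end, apart from all other genes drawn.

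Genes were ranked by the Pearson correlation of log2(CPM + 1) with each member over 30 points, 10 classes in each of 3 libraries, among 8576 genes with at least 1000 UMIs. Points of a library share its depth and its pool of free RNA, so the correlations are a description. The 3 most like Arntl were Btaf1 (0.81), Taco1 (0.72) and Ago4 (0.72), and those most like Npas2 were Ccni (0.86), Caprin2 (0.84) and Arl3 (0.83). Clock was most like Ano6, Arid5b and Rfx3 (0.80, 0.79 and 0.78), and Nfil3 most like Bcar3, Tmem266 and Mogs (0.90, 0.89 and 0.89). Cry1 was most like Inpp5f (0.85), Nr4a1 (0.81) and Nr1d2 (0.80), of which Nr1d2 is a clock repressor. Rora was most like Dcn, Sned1 and Slit3 (0.96, 0.95 and 0.95), and Dcn is one of the fibroblast markers. Among the members themselves, Arntl and Npas2 were at 0.68, Npas2 and Clock at 0.65, and Cry1 was at -0.45 with Arntl and -0.51 with Npas2.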

How the data were processed

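RNA of nuclei released mechanically from frozen glands and sorted with DAPI was tagged in droplets by chemistry that reads transcript 3′ ends, per the labels' protocols. The deposited values are counts, UMIs per gene and barcode, not normalized; the authors' tools were Cell Ranger 7.0.1 and build GRCm38, per the submitters' processing notes. The annotation and whether intron reads were counted are not given in the sources used here. Each value rests on the UMIs printed with it, and the files state no replicate libraries.

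Barcodes under 500 genes (1911, 1536 and 1425 in the pilocarpine, saline and non-irradiated libraries) or over 5% mitochondrial UMIs (10, 13 and 3) were left out. scrublet, with an expected rate of 6%, called 0 barcodes in each library and so did not work here, and doublets stayed in. Nuclei were clustered with scanpy 1.11.5 on 3000 variable genes without the clock genes, 30 components, 15 neighbours and Leiden resolution 1 (leidenalg 0.10.2), with no integration. A cluster was named when its markers averaged at least 0.5 of the highest cluster's CPM, at least 3 markers reached 0.5, and no other type had more markers among its 10 leading genes; this rule was set after seeing the data, and names may differ from the study's. CPM has exact Poisson intervals, ratios exact conditional binomial intervals (scipy 1.17.1), and differences of log2 ratios normal intervals from the counts. The steps were tested on simulated data. Median-ratio scaling of the kind used for size factors was tried as another scaling. Of the other clock genes, 1 enters the counts and medians but is not reported here by itself. The members and all gene lists were chosen with earlier results of these data known. Named other clock genes are the 3 with the largest ratio per comparison in acinar-like and in duct-like nuclei, beside those that a count of 6 or fewer names, and for each member the 3 genes most like it. Gene positions come from GENCODE on GRCm38 and promoters from RefSeq on GRCm38.p6.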

Additional observations from a re-analysis of the deposited data

Results flagged for a closer look

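Opposite directions of a member in a pair of classes, each with a counting interval that excludes no change, were found in 8 cases; with 1 library per group the difference was not tested over replicates, and the intervals given cover counting error only. Clock, as log2 ratio of pilocarpine over saline, was 0.17 in acinar-like nuclei and -0.21 in the Wnt4 and Scnn1b cluster, a difference of 0.38 (0.19 to 0.57). Rora, as log2 ratio of pilocarpine over saline, was 1.43 in granular or striated duct-like nuclei, against -0.73 in fibroblast-like nuclei, -0.41 in myoepithelial-like nuclei and -0.74 in the Wnt4 and Scnn1b cluster, differences of 2.15 (1.72 to 2.59), 1.83 (1.39 to 2.28) and 2.16 (1.72 to 2.60). As log2 ratio of pilocarpine over non-irradiated, Rora was 1.15 in duct-like nuclei and 0.15 in fibroblast-like nuclei, against -0.13 in myoepithelial-like nuclei and -0.10 in the Wnt4 and Scnn1b cluster, with differences of 1.28 (0.73 to 1.82) and 1.25 (0.71 to 1.79) for duct-like nuclei and of 0.28 (0.16 to 0.39) and 0.25 (0.16 to 0.34) for fibroblast-like nuclei. The duct-like value rests on 61 Rora UMIs in 33 of 342 nuclei of the pilocarpine library, at most 11 in a nucleus. Of these UMIs, 14 came from the 21 nuclei of cluster 14, and the counting intervals do not cover such clumping. Neither duct-like ratio was defined with free RNA subtracted. The depth of the Wnt4 and Scnn1b cluster, given above, is a further limit.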

How the results depend on the processing

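Arntl in acinar-like nuclei stayed at least 2-fold lower under all 11 alternatives tried for saline over non-irradiated, between 0 and 0.0511 beside 0.0319 as reported, and Npas2 between 0.0118 and 0.0628 beside 0.0470. With free RNA subtracted, saline over non-irradiated was 0 for Arntl and 0.0118 for Npas2, and pilocarpine over non-irradiated 0.0236 for Arntl and 0.0178 for Npas2. With equal weight per cluster, Arntl was 0.00968 for saline over non-irradiated and 8.71 for pilocarpine over saline. With nuclei thinned to 800 UMIs, Npas2 was 0.110 for pilocarpine over non-irradiated, and Nfil3 for saline over non-irradiated turned direction, to 1.34 in duct-like nuclei and 1.57 in the Wnt4 and Scnn1b cluster. The cause of these moves was not tested.

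The count of members past 2-fold in acinar-like nuclei for pilocarpine over saline, 1 as reported, was 0 after thinning and 0 at a minimum of 100 UMIs. Other clock genes past the fold in acinar-like nuclei came to 10 at a 1.5-fold limit for saline over non-irradiated (6 as reported). They came to 1 with free RNA subtracted, 2 with equal weight per cluster and 3 at 1.5-fold for pilocarpine over saline (0 as reported), and to 5 and 6 with free RNA subtracted and at 1.5-fold for pilocarpine over non-irradiated (2 as reported). Member calls summed over the 5 classes, for saline over non-irradiated, were 2 higher and 11 lower; they became 0 and 6 after thinning, 0 and 5 at 100 UMIs, and 6 higher at 1.5-fold. For pilocarpine over saline they were 5 higher and 2 lower; they became 2 and 1 at 1000 genes per nucleus, 2 and 0 after thinning, 1 and 0 at 100 UMIs, 8 higher with free RNA subtracted and 4 lower at 1.5-fold. For pilocarpine over non-irradiated they were 1 higher and 8 lower; the higher calls became 2 without the highest doublet scores, without the 50 most abundant genes and at 1.5-fold, 0 by the mean over nuclei and after thinning, and 3 with free RNA subtracted, and the lower calls 4 after thinning and 4 at 100 UMIs. Fewer UMIs per gene remain after thinning and at the higher minimum. The share of all genes past the limit also changes with these settings and is not given beside these counts. Nothing about the members is therefore read from their rise or fall. The sums over classes count a gene once for each class in which it was past the limit.

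The Wnt4 and Scnn1b cluster could not be found at resolutions 0.5 and 2, nor a myoepithelial-like class at 200 genes, so those settings give no value for them. Duct-like ratios in cluster 4 alone were chosen after seeing the data. No paired analysis was possible because there is only 1 library for every group. One library per group means that no spread between animals is known and every interval covers counting error only.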

Other observations

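In immune nuclei, which were too few to compare, Arntl was also lower in the irradiated libraries. Macrophage-like nuclei held 15, 34 and 27 UMIs, or 23.1 CPM with pilocarpine, 25.1 CPM with saline and 79.9 CPM without irradiation, and the interval of the non-irradiated library (52.7 to 116) overlapped neither of the others. T or NK-like nuclei held 8, 10 and 8 Arntl UMIs, or 29.3, 44.5 and 102 CPM, with overlapping intervals. Npas2 in macrophage-like nuclei had 4, 4 and 19 UMIs, or 6.17, 2.96 and 56.2 CPM. Ionocyte-like nuclei, rare duct cells rich in proton pumps, had Arntl at 10.3, 7.10 and 34.4 CPM and Npas2 at 2.95, 3.28 and 28.0 CPM in the same order of libraries.

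Rora was also high in Schwann-like nuclei, the glia of the gland's nerves, at 2854, 3249 and 2798 CPM in the pilocarpine, saline and non-irradiated libraries. Basal duct-like nuclei, 26, 12 and 11 of them, held 12, 2 and 1 Npas2 UMIs, or 110, 52.2 and 19.8 CPM with widely overlapping intervals. Barcodes under the gene minimum held Npas2 at 10.4, 10.01 and 20.05 CPM, so acinar-like nuclei of both irradiated libraries stood below the barcodes of their own library for Npas2.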
